A study of Mus musculus with 50 samples.

Results

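The 86 array probes described here carry the gene symbols of ion channel pore and auxiliary subunits and of neurotransmitter receptor subunits, in wobbler (wr/wr) mouse spinal cord and testis. They were chosen by symbol alone, as every probe whose 1 gene symbol on the platform begins with Kcn, Scn, Cacn, Gabr, Glra, Gria, Grik, Grin or Grm followed by a digit or letter code. They stand for 65 genes and were taken from 20355 probes, of which 14030 have a single gene symbol. Glra1, a glycine receptor subunit, and Gria2, the AMPA receptor subunit that limits calcium entry, name this class of genes in spinal cord, but neither has a named probe and neither was analysed here. No probe of the set carries a Glra symbol. Probes are written with a p before their number in the deposited table, and several genes have more than 1 probe.

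Potassium channels set the resting potential of a cell and repolarise it after an action potential. Voltage-gated calcium channels couple depolarisation to transmitter release and to calcium signals inside the cell. Voltage-gated sodium channels carry the upstroke of the action potential. In the spinal cord, ionotropic glutamate receptors carry fast excitation and GABA-A receptors fast inhibition of motor neurons, while in the testis several calcium and potassium channels serve sperm and the hormone-producing cells. The wobbler mutation is a recessive change in Vps54, which encodes part of a vesicle tethering complex. Homozygotes lose motor neurons with reactive gliosis, and males are sterile with malformed sperm heads.

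Each array compared RNA of wr/wr mice with 1 pool of wild-type (wt) RNA of the same tissue, the wr/wr and wild-type RNA carrying opposite dyes, and the dyes were swapped on an equal share of the arrays of every RNA. Testis RNA came from 10 single wr/wr mice with 4 arrays each. Cord RNA came from 3 sources, pool1 and pool2 with 4 mice and 4 arrays each and mouse 5995 alone with 2 arrays, so the cord values rest on 9 mice in 3 RNAs. The labels list 10 mice in the wild-type pools, while the labelling protocol mentions 6 control animals. No drug or other treatment is named, and neither the age nor the genetic background of the mice is given in those labels. All cord mice also gave testis RNA, so the tissues share animals.

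Every value below is a log2 ratio that is likely wr/wr over wild type. That direction rests on the labels, which list wr/wr as the first channel on every array. No text used here states it, nor whether the signs of dye-swapped arrays were already turned. The file gives ratios only, so neither the level of a gene nor the presence of a tissue's defining markers can be read from it, and no level is compared between genes. Each RNA's value is the mean of its Cy5 and Cy3 means, and a test against 0 does not include how wild-type mice vary among themselves. In bulk tissue, fewer cells of a type and less RNA per cell cannot be told apart. A probe is called where limma's adjusted p (Benjamini-Hochberg over all probes tested) is under 0.05.

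Arrays of the same cord RNA in opposite dyes had a median Spearman correlation of -0.083 over all probes and -0.15 over the members, against 0.24 and 0.26 for the same dye in different RNAs. In testis the corresponding values for all probes were 0.11 and 0.20. Cord arrays thus resembled arrays of the same dye more than arrays of the same RNA. Values for both dyes are given beside some of the cord results, and those printed without them do not always agree between dyes. Among the testis mice, 6065 stood apart by dye, with a member median of -0.39 in Cy5 and 0.13 in Cy3. The wr/wr testis libraries also differed in markers of other cell types. Of 7 probes for Leydig cells 6 were below 0 (median -0.16, 3 called lower), and of 8 for Sertoli cells 6 were above 0 (median 0.21, 5 called higher). All 3 spermatocyte probes (median 0.28, 2 called higher) and all 4 peritubular cell probes (median 0.12, no call) were above 0, both spermatogonium probes below it (median -0.13, no call), and 12 spermatid probes were split evenly (median 0.015, 1 called lower). Their part in the channel results was not tested.

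In wr/wr testis 5 of the 84 members tested, in 63 genes, passed the test. The auxiliary calcium channel genes Cacnb1, Cacnb2 and Cacng4 and the calcium-activated potassium channel gene Kcnn4 were lower, and Grin3b, an NMDA receptor subunit, was higher. The 4 calls lower and 1 higher compare with 5.16% of all 20176 probes called lower and 7.44% called higher. Most differences were small. The median size of a member's log2 ratio was 0.079, against 0.085 for all probes, and 60 of the 84 members (71.4%) were below 0, against 53.4% of all probes. The median member ratio was -0.052, against -0.011 for all probes. By dye, the member median was -0.11 on the Cy5 arrays, against -0.031 for all probes, and 0.0072 on the Cy3 arrays, against 0.019. On Cy5 arrays alone 77.9% of members were below 0, against 56.3% of all probes. On Cy3 arrays alone the shares were close, at 47.1% of members and 45% of all probes. The median of the members within a mouse was below 0 in 9 of 10 mice on Cy5 and in 7 of 10 on Cy3, where 6065 was highest at 0.13. With the sign of the Cy3 arrays turned, which reads the swapped arrays the other way round, 67.9% of members and 55.9% of all probes were below 0. In that reading 2 members were called higher and 0 lower, against 4.05% and 0.813% of all probes.

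**Figure D1:**
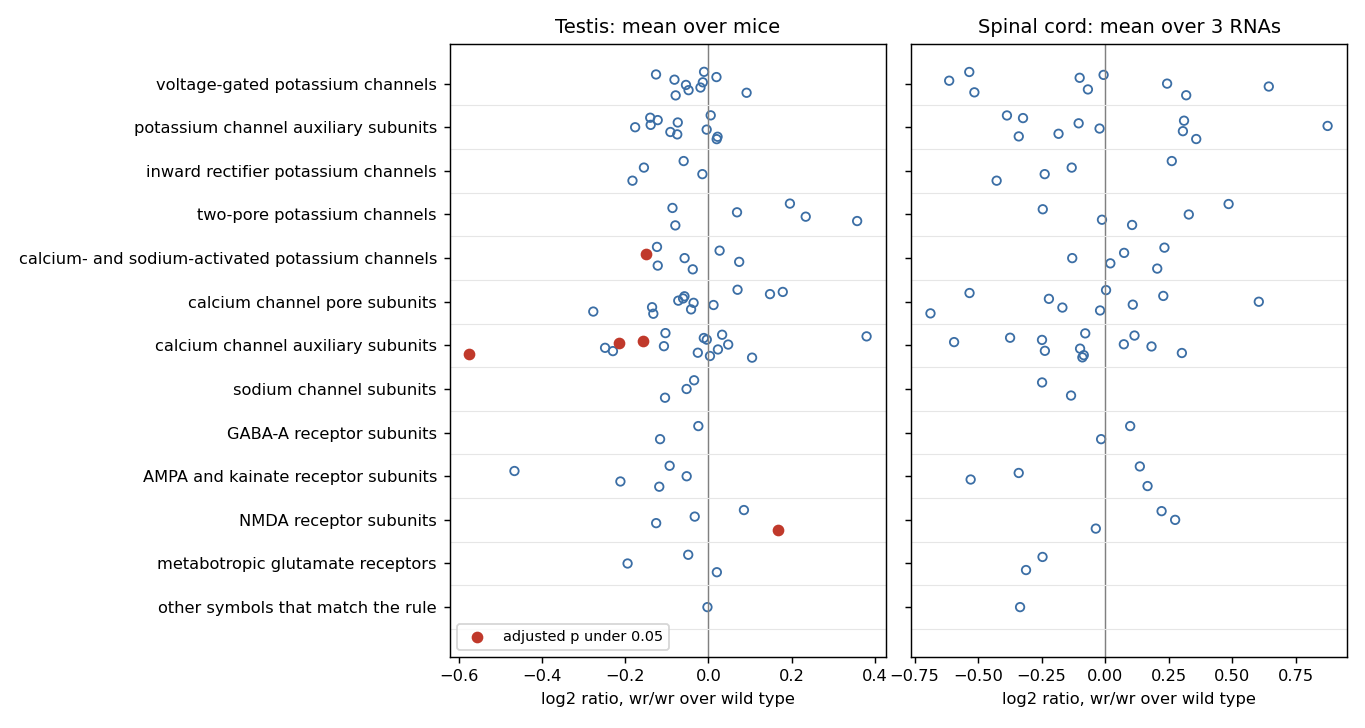
Mean log2 ratio, wr/wr over wild type, of each member probe (1 circle per probe), by family (vertical axis), in testis (left, 84 probes) and spinal cord (right, 68 probes). Filled red circles are the 5 probes with an adjusted p under 0.05, all in testis, and the horizontal scales of the panels differ.

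Cacng4 encodes a transmembrane protein that assists the trafficking and gating of AMPA receptors and belongs to the calcium channel gamma family. Its probe p19760 had the largest called difference of the set, with a lowest value of -1.39 in mouse 5907, a median of -0.49 and a highest of 0.0025 in mouse 5905. Only mice 5905 and 5906 lay near 0, and mice 5907 and 6493 were lowest. The mean was -0.57 ± 0.44 (SD, n = 10), a 1.49-fold lower ratio, with an adjusted p of 0.0189, and the dyes gave -0.60 in Cy5 and -0.55 in Cy3. The call held on either dye alone (adjusted p 0.0222 and 0.0465) and without any single mouse. The other probes of Cacng4, annotated to the same transcript, did not pass the test. Probe p14976 averaged -0.23 ± 0.73, p15947 -0.026 ± 0.17 and p7312 0.0037 ± 0.26. The result is therefore that of 1 probe of 4.

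Cacnb2 and Cacnb1 encode cytoplasmic beta subunits that carry the calcium channel pore to the membrane. Cacnb2 ranged from -0.38 to 0.043 over the mice with a median of -0.23, and 9 of 10 mice were below 0. Its mean was -0.22 ± 0.13 (SD, n = 10), 1.16-fold lower, with an adjusted p of 0.0153. The dyes differed in size, at -0.35 in Cy5 and -0.084 in Cy3, and neither alone passed (adjusted p 0.134 and 0.723). Mouse 6065 entered these dye means with Cy5 arrays at -3.525 and -0.065 and Cy3 arrays at 1.158 and 1.043. Cacnb1 ranged from -0.33 to 0.039 with a median of -0.15, and mouse 6163 alone was above 0. Its mean was -0.16 ± 0.13 (adjusted p 0.0372), with -0.022 in Cy5 and -0.29 in Cy3. The call for Cacnb1 was lost without any 1 of 7 mice (5906, 5907, 6069, 6335, 5995, 6493 or 5997), while Cacnb2 kept its call without any single mouse. Neither Cacnb4 probe passed, at 0.048 ± 0.10 and -0.11 ± 0.19.

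Kcnn4 encodes the intermediate-conductance calcium-activated potassium channel. Its probe p4190 was below 0 in all 10 mice, from -0.37 in mouse 5907 to -0.033 in mouse 5995, with a median of -0.14. The mean was -0.15 ± 0.11 (SD, n = 10), 1.11-fold lower, with an adjusted p of 0.0291. The dyes gave -0.18 in Cy5 and -0.12 in Cy3, and 3 of 10 mice were above 0 in Cy3. The other Kcnn4 probe, p5197, averaged -0.057 ± 0.31 and was above 0 in 6 of 10 mice. The call was lost without mouse 5906, 6069, 6335 or 6493, each taken alone.

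Grin3b encodes an NMDA receptor subunit known from motor neurons that lowers the calcium permeability of the receptor. Its probe was above 0 in all 10 mice, from 0.0043 in mouse 6065 to 0.35 in mouse 5995, with a median of 0.16. Mice 5905, 5997 and 6065 lay within 0.03 of 0 and the other 7 between 0.080 and 0.35. The mean was 0.17 ± 0.14 (SD, n = 10), 1.12-fold higher, with an adjusted p of 0.0387. The Cy5 arrays averaged 0.35 and the Cy3 arrays -0.015, so the value above 0 came from 1 dye, and the call was lost without any 1 of 7 mice (5906, 5907, 6069, 6335, 5995, 6493 or 6163).

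**Figure D2:**
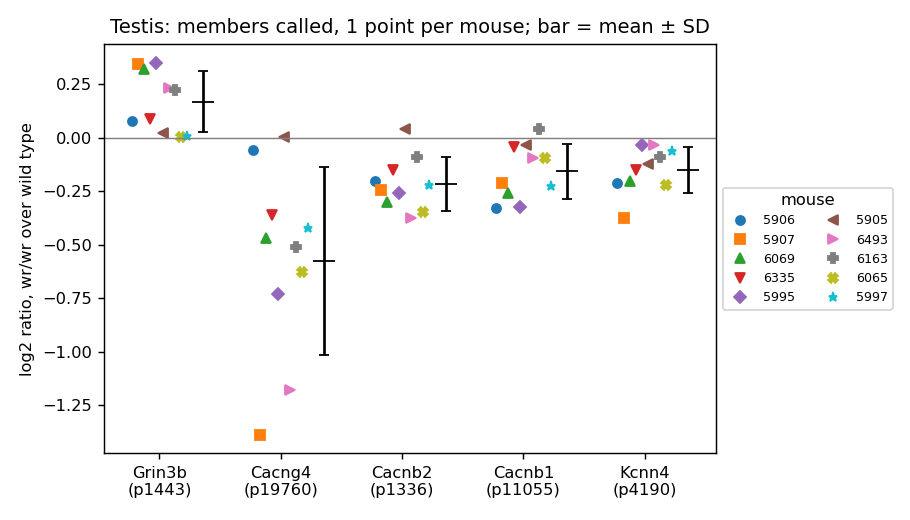
Log2 ratio, wr/wr over wild type, in each of the 10 testis mice (1 symbol per mouse) for the 5 member probes called in testis, with the mean and SD at the right of each set. Cacng4 spans -1.39 to 0.0025, while the other 4 probes stay within 0.38 of 0.

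Among the other potassium channels in testis, none passed the test. All 4 probes for inward rectifiers, which hold cells near their resting potential, were below 0 (median -0.11). Kcnj16 had the smallest p of the 4, at -0.15 ± 0.15 (adjusted p 0.0539), and Kcnj8 the lowest mean, at -0.18 ± 0.43. Of the 6 probes for two-pore leak channels 4 were above 0 (median 0.13). Kcnk4, a lipid- and stretch-sensitive leak channel, was above 0 in all 10 mice on probe p13968, from 0.056 to 0.86 in mouse 6335, with a mean of 0.23 ± 0.24 and an adjusted p of 0.0509. Its probe p12929 averaged 0.069 ± 0.15 and its probe p14620 0.36 ± 1.12, the widest spread among the members. On p13968, 1 Cy5 array of mouse 6335 read 2.82, and the mouse's other arrays with a value read 0.066 and 0.27. Kcnk3, another leak channel, was below 0 in all mice at -0.086 ± 0.11 (adjusted p 0.152). Of 10 voltage-gated pore genes 8 were below 0, between -0.13 and 0.092 in all, and of 11 probes for potassium channel auxiliary subunits 8 were below 0. Among these auxiliary subunits Kcnab2, a beta subunit, came nearest to a call at -0.14 ± 0.13 (adjusted p 0.0518). Kcnk4, Kcnk3, Kcnj8, Kcnj16 and Kcnab2 were singled out after their values were seen.

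The calcium channel pore genes in testis gave no call on 12 probes. The T-type channel gene Cacna1g was below 0 in all mice on probe p1881, from -1.08 to -0.036 with a mean of -0.28 ± 0.32 (adjusted p 0.0722), while its probe p1511 averaged -0.042 ± 0.097. The other T-type gene measured, Cacna1h, averaged -0.13 ± 0.15 (adjusted p 0.0965). All 3 probes of Cacna1a, the P/Q-type channel of nerve endings, were above 0 in 8 of 10 mice, with means of 0.070, 0.18 (p6279) and 0.15, and none passed. On p6279, 1 array of mouse 5995 read 4.02 and the mouse's other arrays -0.038, 0.42 and 0.23, and without that mouse the mean was 0.070 ± 0.18 (SD, n = 9). Cacna1g and Cacna1h were likewise chosen after their values were seen.

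Of the glutamate receptor genes in testis, all 5 probes for AMPA and kainate receptor subunits were below 0 without a call (median -0.12). Gria3, an AMPA receptor subunit, had the lowest mean, -0.47 ± 0.84, but its mice ran from -1.32 to 1.13 (adjusted p 0.204). It is named for that spread. The 2 kainate receptor genes Grik4 and Grik5 averaged -0.052 for Grik4 and -0.21 and -0.12 for the Grik5 probes. Both GABA-A receptor subunits (Gabra5 -0.024 ± 0.21, Gabrb1 -0.12 ± 0.21) also lay below 0 without a call. So did the 3 sodium channel probes (between -0.10 and -0.034), for Scn3b and the epithelial channel subunit Scnn1a, which is not voltage-gated.

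In wr/wr spinal cord no member passed the test, nor did any of the 16893 probes tested (0% called higher and 0% called lower). The smallest adjusted p over all probes was 0.518. The members of smallest p were Kcna1, Cacna1a and Cacna2d2 below 0 and Cacna1d and Kcnmb4 above it. At an unadjusted p under 0.05, 2 of 68 members (in 55 genes) were higher and 5 lower, against 4.62% and 4.66% of all probes. The 3 RNAs agreed in sign for 11 members above 0 and 21 below, where 18.5% of all probes were above in all 3 and 21% below. The members' median ratio was -0.053, against -0.0033 for all probes, and their median size was 0.24, against 0.19. Ratios of 0.5 or more in size were found for 10 of 68 members (14.7%) and for 10.6% of all probes. Leaving out probes without a value in all 3 cord RNAs removed 18 members, among them Gria3, Grin2c, Cacna1b, Cacna1e and both Kcnn4 probes.

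Kcna1 encodes a fast voltage-gated potassium channel pore of axons, gathered beside the node of Ranvier. Its ratios were -0.64 in pool1, -0.65 in pool2 and -0.32 in mouse 5995. All 3 RNAs were below 0, and so was each RNA in both dyes. The mean was -0.53 ± 0.19 (SD, n = 3), and the dye means were -0.50 in Cy5 and -0.57 in Cy3. Limma gave an unadjusted p of 0.0141 and an adjusted p of 0.518. It was the only member below 0 in every RNA and both dyes, where 4.23% of all probes were. In testis Kcna1 averaged -0.010 ± 0.10 (n = 10).

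Kcnmb4 encodes the neuronal auxiliary subunit of the large-conductance calcium-activated potassium channel. It read 0.38 in pool1, 0.22 in pool2 and 0.47 in mouse 5995, with a mean of 0.36 ± 0.13 (SD, n = 3), 0.34 in Cy5 and 0.38 in Cy3, and an adjusted p of 0.518. Kcnj15, an inward rectifier, read 0.18, 0.11 and 0.50 in the same order (mean 0.26 ± 0.21, unadjusted p 0.126 by limma). These 2 were the members above 0 in all RNAs and both dyes, where 3.79% of all probes were.

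**Figure D3:**
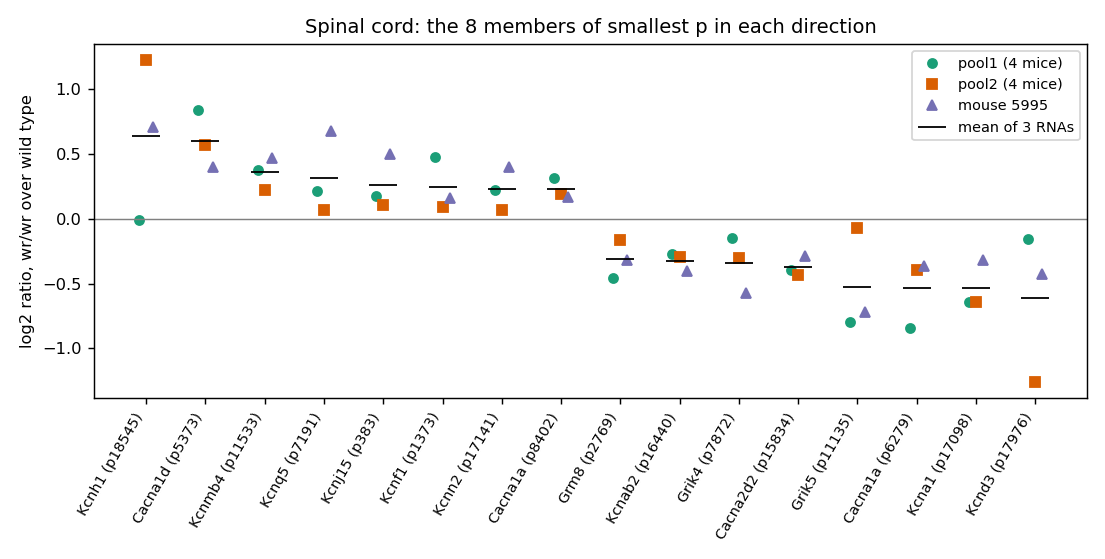
Log2 ratio, wr/wr over wild type, in each cord RNA (pool1, pool2 and mouse 5995) for the 8 member probes of smallest p in each direction, ordered by their mean (black line). Kcna1, Cacna2d2, Kcnab2, Kcnmb4 and Cacna1d lie on 1 side of 0 in all 3 RNAs, while Kcnh1 reads -0.0075 in pool1 and 1.23 in pool2, and none has an adjusted p under 0.05.

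Other potassium channel genes in cord varied more. Kcnab2, the beta subunit that partners Kcna1-type channels, read -0.27, -0.30 and -0.40 in pool1, pool2 and mouse 5995, but its dye means were -0.0083 in Cy5 and -0.64 in Cy3. Kcnd3, an A-type pore, read -0.16, -1.26 and -0.43, so that pool2 carried much of its mean of -0.61 ± 0.57. Within pool2, 1 Cy5 array read -4.27 and the other arrays with a value -0.80 and 0.019. The dye means of Kcnd3 were -1.08 in Cy5 and -0.15 in Cy3. Kcnh1, an ether-a-go-go pore, read -0.0075, 1.23 and 0.71 and did not keep 1 sign. On Kcnh1, 1 Cy3 array of pool2 read 3.76, and the dye means were 0.064 in Cy5 and 1.22 in Cy3. Kcnq5, a subunit of the M-current, read 0.21, 0.065 and 0.67. Kcnf1, a silent modulatory subunit, read 0.48, 0.091 and 0.16, with a Cy5 mean of -0.045. Kcnn2, a small-conductance calcium-activated channel, read 0.23, 0.070 and 0.40, with a Cy3 mean of -0.075. Each had an adjusted p of 0.518 or more.

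Calcium channel genes in cord gave values of both signs. Cacna1d, the pore of an L-type channel that opens at low voltage and supports sustained firing of motor neurons, read 0.84 in pool1, 0.57 in pool2 and 0.40 in mouse 5995. All 3 RNAs were above 0, with a mean of 0.60 ± 0.22 (SD, n = 3), dye means of 0.28 in Cy5 and 0.92 in Cy3, and an adjusted p of 0.518. Within pool2 the Cy5 reading was 1.33 and the Cy3 reading -0.19, each from 1 array. Within mouse 5995 they were -0.75 and 1.55, so both of these RNAs changed sign between dyes. Cacna2d2, an alpha-2-delta subunit that raises the surface number of channels, read -0.40, -0.44 and -0.29 (mean -0.37 ± 0.076, adjusted p 0.518), with -0.14 in Cy5 and -0.61 in Cy3. The probes of Cacna1a disagreed. Probe p6279 read -0.84, -0.39 and -0.36, while p8402 read 0.32, 0.20 and 0.17 and p10488 averaged 0.0031 ± 0.30. All 3 are annotated to the same transcript, and the mean of -0.53 on p6279 came from the Cy3 arrays (-1.05, against -0.018 in Cy5), of which 1 array of pool1 read -2.86. The beta subunits called lower in testis had means below 0 in cord without a call. Cacnb1 averaged -0.25 ± 0.15, with -0.032 in Cy5 and -0.47 in Cy3. Cacnb2 averaged -0.59 ± 0.75 but read 0.27 in pool1. On Cacnb2, 1 Cy3 array of pool2 read -3.69 and the Cy5 array of mouse 5995 -1.90. Cacng4 p19760 averaged 0.30 ± 0.87.

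Glutamate receptor genes in cord gave values that depended on the probe or the dye. Grik5, a high-affinity kainate receptor subunit, read -0.80, -0.069 and -0.72 in pool1, pool2 and mouse 5995 on probe p11135. Its probe p17601 averaged 0.17 ± 0.038, with 0.66 in Cy5 and -0.33 in Cy3. Grik4, its close relative, read -0.15, -0.31 and -0.57, with 0.19 in Cy5 and -0.87 in Cy3. Grm8, a presynaptic metabotropic receptor, read -0.45, -0.17 and -0.32, and its dye means lay at -1.51 in Cy5 and 0.88 in Cy3. Grin3b, the gene called higher in testis, averaged -0.037 ± 0.13 in cord, with 0.36 in Cy5 and -0.44 in Cy3. Gria1, the AMPA receptor subunit measured in cord, averaged 0.14 ± 0.38, with 0.79 in Cy5 and -0.51 in Cy3. The GABA-A subunits Gabra5 and Gabrb1 averaged 0.098 ± 0.58 and -0.016 ± 0.035.

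**Figure D4:**
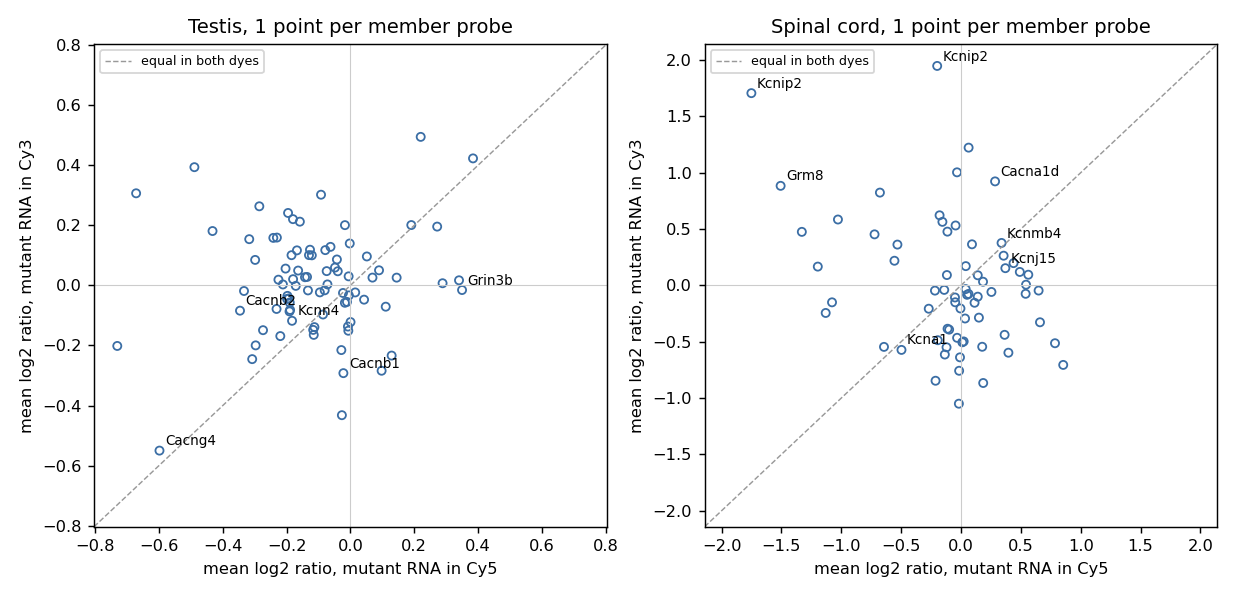
Mean log2 ratio on the Cy5 arrays (horizontal) against the Cy3 arrays (vertical) for each member probe in testis (left) and spinal cord (right), the dye being that of the wr/wr RNA. Points near the dashed line read alike in both dyes, as Cacng4 in testis and Kcna1 and Kcnmb4 in cord do, whereas Grm8 in cord reads -1.51 and 0.88.

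The cord ratios of the channel genes stood beside shifts in marker genes of the cord's cell types, none of which passed the test. Of 22 probes for pan-neuronal genes 17 were below 0, with a median of -0.20 and RNA medians from -0.26 to -0.11. All 4 motor neuron probes were below 0 (median -0.30), and of 11 oligodendrocyte probes 10 were (median -0.40). Of 15 astrocyte probes 12 were above 0 (median 0.28), and of 11 for microglia and macrophages 9 were (median 0.63, RNA medians 0.59 to 0.69). Of 3 inhibitory neuron probes 2 were below 0 (median -0.26). Their RNA medians were -0.07 in pool1, 0.30 in pool2 and -0.45 in mouse 5995. Endothelial probes were split, 5 of 10 above 0 (median -0.040). By dye, the pan-neuronal medians of the RNAs ran from 0.034 to 0.14 in Cy5 and from -0.45 to -0.37 in Cy3. Those of the motor neuron probes ran from -0.29 to 0.49 in Cy5, with 2 of 3 RNAs above 0, and from -1.12 to -0.38 in Cy3. The oligodendrocyte medians ran from -0.37 to 0.0325 in Cy5, with pool1 above 0, and from -0.86 to -0.44 in Cy3. The microglia and macrophage medians lay above 0 in both dyes, from 0.56 to 0.66 in Cy5 and from 0.67 to 0.72 in Cy3. The part of these shifts in the channel ratios was not tested.

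Genes that work beside the members were read from 2 further lists. Of 49 probes for other ion channels and receptors, 4 were called higher and 4 lower in testis, where 7.44% and 5.16% of all probes were, so the counts were near the background. The proton channel gene Hvcn1 (-0.19 ± 0.094 on p9229, adjusted p 0.0136; its other 3 probes between -0.085 and 0.038), the acid-sensing channel gene Asic1 (-0.31 ± 0.20, adjusted p 0.0146) and the heat- and osmosensitive channel gene Trpv4 (-0.21 ± 0.17, adjusted p 0.0279) fell. The nicotinic receptor subunit gene Chrna4 (0.15 ± 0.11), the chloride-proton exchanger gene Clcn4 (0.23 ± 0.21 on p16346) and the acid-sensing channel gene Asic2 (0.26 ± 0.24) rose. Of 74 probes for anchoring and trafficking proteins of receptors and channels, 2 were called higher and 5 lower, against the same 7.44% and 5.16%. Both called higher were for Gabarapl1, a relative of the GABA-A receptor-associated protein that serves autophagy (0.24 ± 0.17 and 0.24 ± 0.24). Among those lower were Nrxn2, a presynaptic adhesion protein (-0.26 ± 0.21), Cask, a scaffold (-0.14 ± 0.087 on p17193), and Cntn2, a protein beside the node of Ranvier (-0.21 ± 0.18 on p16522). Their other probes did not pass, at 0.046 for Cask p2802 and -0.054 for Cntn2 p17350. In cord, 0 of 42 and 0 of 63 probes of the lists were called. The smallest p values were those of P2rx1 (0.48), Ano1 (0.84) and P2rx4 (-0.48) in the first list and of Ank3 and Nptxr in the second. For Ank3, which anchors channels at the axon initial segment, probe p16816 averaged 1.23 and p5810 -0.35. Nptxr, a receptor for neuronal pentraxins, averaged -0.39.

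The difference between the tissues' ratios could be fitted for 68 members. With 1 spread shared by both tissues, 6 members were higher in testis than in cord and 6 lower, against 11% and 10.7% of all 16838 probes, so the members' counts were near the background. The spread in fact differed, with a median SD of 0.26 in cord and 0.16 in testis. With each tissue weighted by its own spread, an alternative chosen after seeing the data, 1 member remained higher (Kcna1) and 0 lower. A fit with the replicate block, which paired every cord RNA with testis RNA of the mice it came from, called 0 members and 0 of all 16838 probes in either direction, with a smallest adjusted p of 0.357 over all probes.

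Kcna1 had the smallest p, with a testis minus cord difference of 0.52 ± 0.092 (SE, adjusted p 0.00307, and 0.0300 with the tissues weighted). Its 10 testis mice ran from -0.15 to 0.14 and its cord RNAs from -0.65 to -0.32. Since Kcna1 was named for that p, these ranges only describe the difference and add no support to it. The other differences above 0 were Cacna2d2 (0.36), Cacna1a p6279 (0.71), Grik4 (0.29), Grm8 (0.33) and Grina (0.33), the last a membrane protein that shares the Grin prefix but is no NMDA receptor subunit. Below 0 were Cacna1d (-0.64), Kcnmb4 (-0.34), Kcnh1 (-0.70), Kcnj15 (-0.32), Kcnq5 (-0.40) and Kcnip2 p15917 (-0.40), an A-type channel partner. With the tissues weighted, Cacna1d had an adjusted p of 0.0554 and Kcnmb4 of 0.0662. For most of these genes the difference came from the cord value, since their testis means lay between -0.091 and 0.020. Cacna1a p6279 was the exception, at 0.18 in testis. Without mouse 5995 its testis mean was 0.070 and its difference 0.60 (adjusted p 0.00996).

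**Figure D5:**
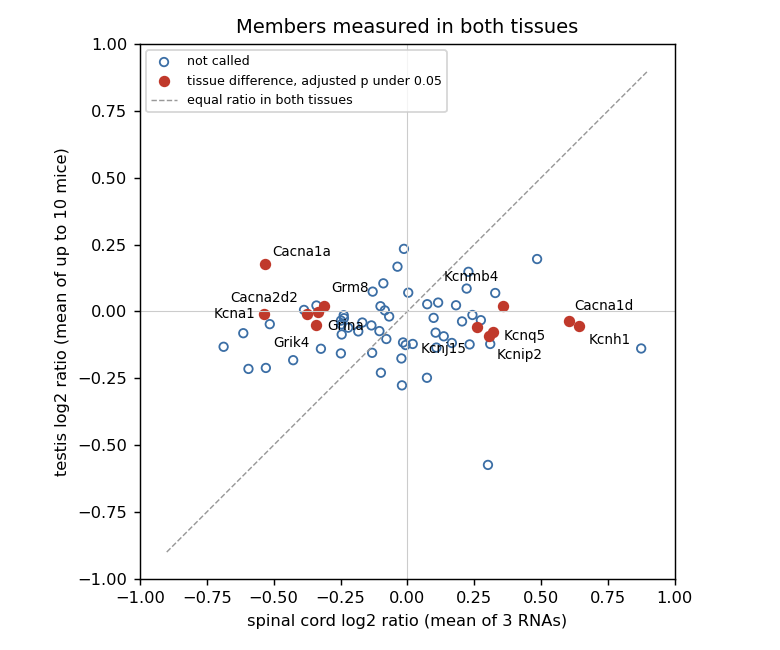
Mean log2 ratio, wr/wr over wild type, in spinal cord (horizontal) against testis (vertical) for the 68 members measured in both tissues. Filled red points are the 12 members whose tissue difference had an adjusted p under 0.05 with a shared spread. Most of them lie within 0.1 of 0 in testis, and the dashed line marks equal ratios.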

How the data were processed

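Log2 ratios were deposited by the authors as 1 table of 20355 probes on 50 arrays (40 testis, 10 cord). The base was read as log2 from the size of the largest values. Array model, scanner software, background correction and normalization are not given in the labels or the file, and depth has no meaning for these ratios, so that the number of arrays limits precision. Gene symbols came from the platform annotation: 14030 probes have 1 symbol, 5 several and 6325 none. No sequences are shown and no coordinates are given, since the build is not named.

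Each array was centred on its median, and values over 10 in size were set to missing (1472 in all, 8 for members). Arrays of an RNA were averaged within dye and then over dyes, so that each mouse or pool is 1 replicate. Probes needed both dyes in at least 8 of 10 testis RNAs or in all 3 cord RNAs. The test of each probe's mean ratio against 0 used limma (version 3.58.1, lmFit and eBayes, under R 4.3.3), and p-values were adjusted by Benjamini-Hochberg over all probes tested. Of the members, Kcnj12 and Scnm1 were tested in neither tissue. The tissue difference was fitted over all 13 RNAs.

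Pools and testes share mice per the labels, but deviations of a cord RNA and of its mice's testes from the tissue means correlated at only -0.0018, 0.015 and -0.013. The members, the lists and their markers were chosen with earlier results of these data known. Named were members called in testis, the 8 of smallest p per direction in cord, the 5 called tissue differences of smallest p per direction with all probes of those genes, and up to 3 genes per direction and tissue of the 2 further lists. Alternatives changed the dye, the centring, scaling, filters, probe averaging, the treatment of large values and the sign of the Cy3 arrays, left out each RNA, and paired or weighted the tissues.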

Additional observations from a re-analysis of the deposited data

Results flagged for a closer look

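In testis, mouse 5995 read 1.16 on Cacna1a p6279, far above the other 9 mice. That value came from 1 of the mouse's 4 arrays, at 4.02, the others reading -0.038, 0.42 and 0.23, and without the mouse the mean fell from 0.18 to 0.070. It was the only value to stand apart in this way among 22 named probes examined, and chance gives about 1 in 20. Other probes described above were not examined in this way. Among them, Cacng4 p14976 read -2.28 in mouse 6069, Kcnk4 p13968 0.86 in mouse 6335 and Kcnk3 -0.37 in mouse 5905.

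For 10 named members the ratio differed between the tissues by limma's test of the difference with a shared spread. Testis was above cord for Kcna1 (0.52, adjusted p 0.00307), Cacna2d2 (0.36, 0.0125), Cacna1a p6279 (0.71, 0.0349), Grik4 (0.29, 0.0382) and Grina (0.33, 0.0398), the second value being the adjusted p. Testis was below cord for Cacna1d (-0.64, 0.00604), Kcnmb4 (-0.34, 0.00940), Kcnh1 (-0.70, 0.0283), Kcnj15 (-0.32, 0.0371) and Kcnq5 (-0.40, 0.0386). Of these, Kcna1 alone passed with each tissue weighted by its own spread, and none passed in the fit that paired cord RNAs with the testes of their mice.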

How the results depend on the processing

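In testis, 1 member was called higher and 4 lower. Called higher were 2 on Cy5 arrays alone, 0 on Cy3 arrays alone, and 2 with the Cy3 sign turned, without centring, or with probes measured in all 10 mice. Called lower were 8 on Cy5 arrays alone, 0 with the Cy3 sign turned, 9 with arrays scaled and 2 with a gene's probes averaged. Over all probes the share called lower moved from 5.16% to 7.11%, 0.813%, 6.94% and 5.11% under the same settings. The share called higher moved from 7.44% to 9.76%, 2.54%, 4.05%, 7.69% and 8.13% under the settings listed for members called higher. Leaving out 1 mouse gave 0 to 2 higher and 2 to 7 lower, where 2.51% to 7.72% and 1.78% to 5.27% of all probes were. There were 0 higher without 5906, 5907, 6069, 5995, 6493 or 6163, 2 lower without 5906, 6335 or 6493, and 7 lower without 5905 or 6065. The testis median was -0.11 on Cy5 and 0.0072 on Cy3 arrays. The cord median was -0.018 on Cy5 arrays and 0.068 with the Cy3 sign turned, and no alternative gave a call in cord. Of the tissue differences, 6 each way, 3 were higher and 3 lower on Cy5 arrays alone, 10 were higher on Cy3 arrays alone, and 3 were higher and 2 lower with the Cy3 sign turned, where the median was -0.14. Over all probes, 11% were higher and 10.7% lower, against 5.1% and 4.39% on Cy5, 12.7% and 13.3% on Cy3, and 7.44% and 4.28% with the sign turned. Weighted tissues gave 1 and 0 (2.03% and 2.57% of all probes), and the replicate block with paired animals 0 and 0 (0% and 0%). Leaving out 1 RNA gave 2 to 8 higher and 3 to 8 lower, against 6.8% to 13.2% and 7.77% to 14.1% of all probes. There were 2 or 3 higher without cord mouse 5995 or testis 5906, 6335, 5905, 6493 or 6163, and 3 lower without testis 6069, 6335, 6493 or 6163. Among the named probes checked, the sign of Grin3b in testis reversed on Cy3 (-0.015). In cord, those of Kcnn2 (-0.075) and Grm8 (0.88) reversed on Cy3 and those of Kcnf1 (-0.045) and Grik4 (0.19) on Cy5. The tissue differences of Cacna2d2 (-0.15) and Grik4 (-0.056) reversed on Cy5. The differences of Grm8 and Kcnip2 p15917 were not checked. For Grm8 the Cy5 and Cy3 means were -0.18 and 0.22 in testis and -1.51 and 0.88 in cord. Testis thus lay above cord in Cy5 and below it in Cy3. With values over 10 kept, the difference for Cacna1d was -1.05 (adjusted p 0.348). The causes were not tested.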
